A study of Homo sapiens with 4 samples.

Results

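The 39 genes described here encode the proteins that carry glucose into the cell, break it down to pyruvate and lactate, and export the lactate, together with the oxygen-sensing factors HIF1A and EPAS1, their prolyl hydroxylases and a set of genes that these factors are known to induce. They were taken by symbol, or by Ensembl identifier where the deposited name was blank, and all 39 were found in both deposited tables, which hold 30148 genes for UMUC3 and 17752 for SW780. RNA was sequenced from 2 established human lines of bladder cancer, UMUC3 and SW780. The shSCD1 group of each line carried a lentiviral knockdown of SCD1, and the shNT group has the genotype WT in the labels. UMUC3 grew in MEM and SW780 in DMEM, so line and medium cannot be told apart; the number of hairpins, clones or cultures behind a library is not given in the sources used here. SCD1, gene symbol SCD, is the desaturase that makes monounsaturated fatty acids. Each of the 4 groups was 1 library. Spread between replicates is therefore unknown, differences within a line carry no test, and the words higher and lower refer to the sequenced libraries, not to the conditions.

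Glycolysis turns glucose into pyruvate in the cytosol, and in many tumour cells much of that pyruvate is reduced to lactate even when oxygen is present. Hypoxia-inducible factors are pairs of an oxygen-labile alpha subunit (HIF1A or EPAS1) and a stable partner. In oxygen, the EGLN enzymes hydroxylate the alpha subunit and it is destroyed; without oxygen it persists, binds short DNA sites and raises transcription of glucose transporters, most glycolytic enzymes, and genes of angiogenesis, pH control and mitophagy. The alpha subunits are thus controlled mainly as proteins, which RNA sequencing does not measure.

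Read totals over the genes of each table ranged from 22818368 to 34087871 per library. Levels are given in CPM, the reads of a gene scaled by the total of its library. Ratios are log2((shSCD1 CPM + 1)/(shNT CPM + 1)), so a negative value means less in shSCD1. Folds are plain ratios of CPM, and their 95% intervals are exact Clopper-Pearson intervals that cover counting error only. The tables call their libraries first and second; the second was read as shSCD1 from the name of the fold change table, and every direction within a line would turn round if its columns stood in the other order. SCD went from 264 to 59.6 CPM in UMUC3 and from 592 to 92.1 CPM in SW780, which is the only check of that reading. Of 19 urothelial and epithelial markers (14 of them analysed in UMUC3), 16 reached 1 CPM in each SW780 library and 6 in each UMUC3 library, where KRT19, UPK1B and GRHL3 had 0 reads in both libraries. The markers' summed level was 12901 and 10572 CPM in SW780 shNT and shSCD1, and 536 and 264 CPM in UMUC3. Of 17 fibroblast, endothelial and blood markers (16 analysed in SW780 and 12 in UMUC3), 7 and 6 reached 1 CPM in SW780 shNT and shSCD1 and 4 and 1 in UMUC3, with summed levels of 216 and 298 CPM, and 71.9 and 50.2 CPM. LUM, VWF and CDH5 had 0 reads in both UMUC3 libraries, and COL1A2, DCN and PDGFRB in both SW780 libraries. The part of these markers in the results was not tested. Bulk RNA cannot tell fewer cells of a kind from less RNA per cell.

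In UMUC3 most glycolytic enzymes were lower in the shSCD1 library, and in SW780 most stood close to shNT. The enzymes from hexokinase to pyruvate kinase plus the lactate dehydrogenases took 1.78% of UMUC3 shNT reads (95% interval 1.77 to 1.78) and 1.31% of UMUC3 shSCD1 reads (1.30 to 1.31). In SW780 they took 1.33% (1.32 to 1.33) and 1.31% (1.31 to 1.32). The enzymes counted from hexokinase to pyruvate kinase, here and in the next sentence, include the regulatory enzymes PFKFB3 and PFKFB4. Of the 16 enzymes from hexokinase to pyruvate kinase kept in UMUC3, 14 had a log2 ratio below 0, as did 4 of the 10 hypoxia targets kept and 28 of 41 other HIF targets, where 45.7% of all genes did; the difference between these groups was not tested.

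Of the 39 genes, 36 had at least 1 CPM in either library of UMUC3, and of these 26 had a log2 ratio below 0, where 45.7% of all 14063 genes kept did. Their median log2 ratio was −0.24, beside 0.04 over all genes kept. SLC2A1 and BNIP3 were lower by at least 2-fold on the log2 ratio (the size rule, passed in this direction by 2.18% of all genes), and none was higher (2.47% of all genes). At 1.5-fold, PGK1, ALDOA, LDHA and PDK1 joined them as lower, 6 in all (6.86% of all genes), and EPAS1 was the 1 higher (10.1%). By counting error alone, the fold interval lay below no change for 22 of the 36 (29.6% of all genes), above it for 6 (35.9%) and held it for 8. Whether an interval leaves out no change depends on read depth, and these shares were not matched for it. Of the 36, 20 reached 100 CPM in either library, beside 2475 of all 14063 genes kept. The 12 at 300 CPM or more in either library were all below 0, where 56.6% of all genes at that level were, with a median of −0.46 beside −0.04. Of the 20 at 100 CPM or more, 15 were below 0 (51.2% of all genes at that level). These level cuts and the count of intervals were added after the data were seen. The members left out by the 1 CPM minimum were ALDOC, EGLN3 and CA9.

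In SW780, 36 of the 39 were kept as well, and 16 were below 0, where 51.5% of 12880 genes were. The median log2 ratio was 0.01, beside −0.01 over all genes kept, and none passed the size rule, which 1.48% of all genes passed as higher and 1.06% as lower. At 1.5-fold, SLC16A1, SLC16A3 and BNIP3 were higher (5.05% of all genes) and ALDOC was lower (3.7%). The fold interval lay above no change for 14 (28% of all genes), below it for 11 (29.8%) and held it for 11. These shares were not matched for read depth either. Of the 13 at 300 CPM or more, 6 were below 0 (51% of all genes at that level), and of the 21 at 100 CPM or more, 9 were (52.3%). SLC2A3, CA9 and CA12 were left out by the 1 CPM minimum, and ANKRD37 was kept through its shSCD1 library alone. The share of reads from the 13 protein-coding transcripts of the mitochondrial genome moved as well, from 3.65% to 5.51% in UMUC3 and from 4.33% to 4.51% in SW780; its part in the lower glycolytic values of UMUC3 was not tested.

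**Figure D1:**
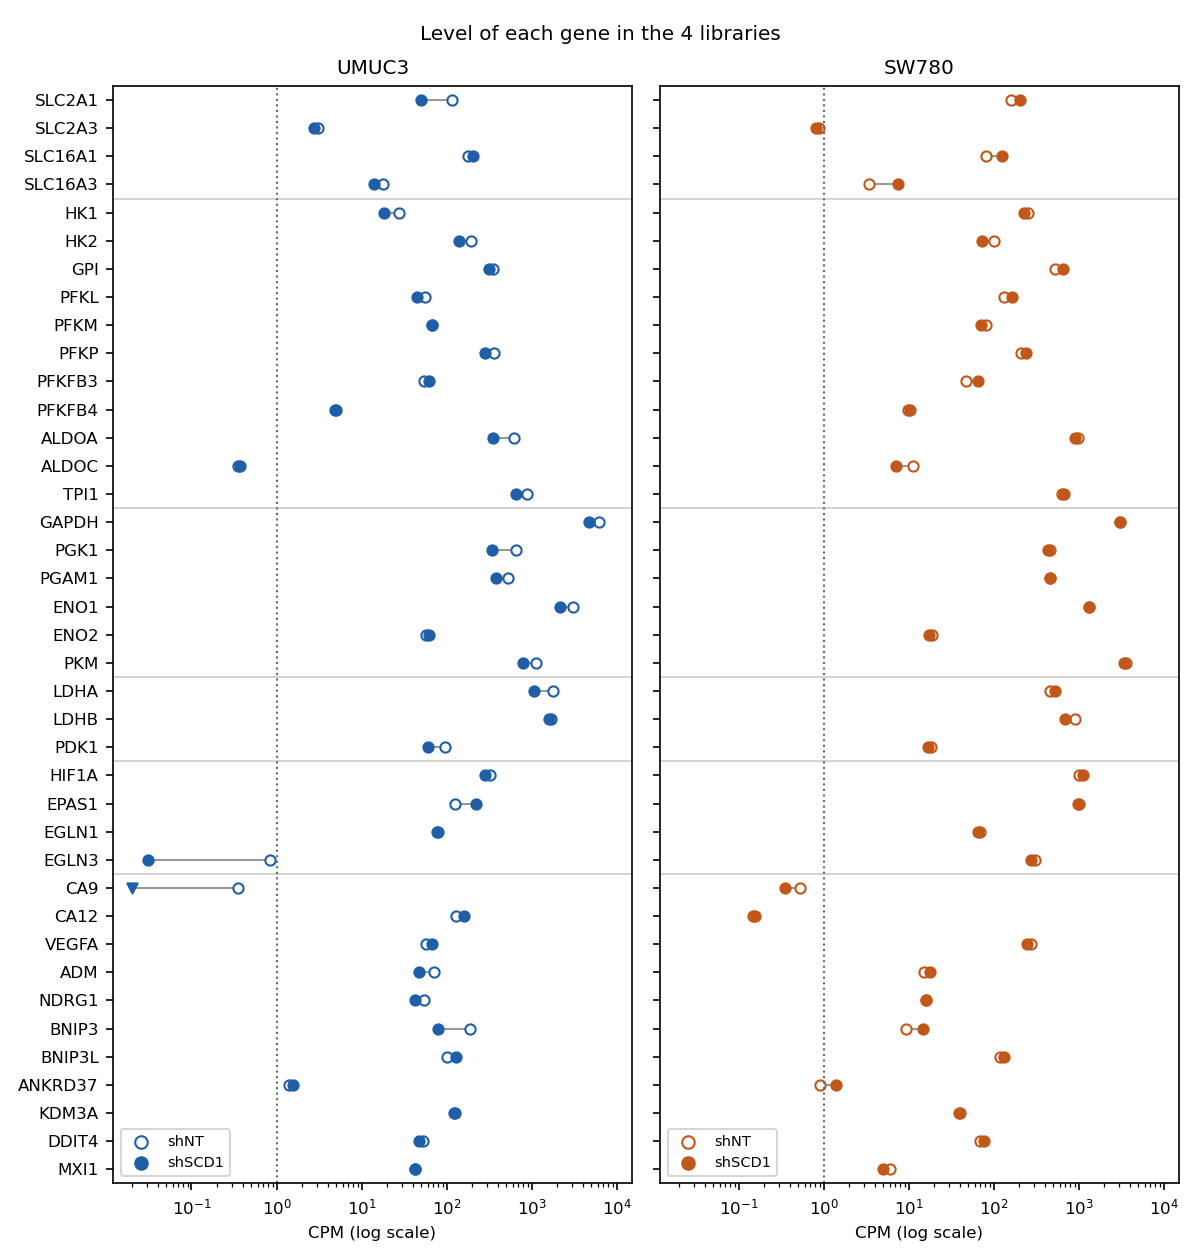
Level of each of the 39 genes in CPM (log axis) in the shNT library (open circle) and the shSCD1 library (filled circle) of UMUC3 (left) and SW780 (right), ordered by role, with a dotted line at the 1 CPM minimum. The triangle marks CA9 in UMUC3 shSCD1, which had 0 reads and is drawn at the left edge. GAPDH, from 3092 to 6221 CPM in the 4 libraries, lies near the top of the range in both lines, and filled circles lie left of open ones for most glycolytic enzymes of UMUC3.

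Hypoxia-inducible factors bind a short core that begins with A or G. RefSeq promoters (GRCh38.p14, 250 bases before to 50 after each gene's start) matched 34 of the 39 genes and were searched for ACGTG and GCGTG on both strands, with overlaps counted, so a CACGTG counts once on each strand. Of the 34, 25 held at least 1 match, where 48.4% of 27305 promoters in the table did. Both cores contain CG, and these shares were not matched for the base content of the promoters. Of the 6 genes lower by at least 1.5-fold in UMUC3, 5 held a match, as did 18 of the 25 other kept genes with a promoter. The promoters of 4 of those 6 genes are shown because, among kept genes, they had the lowest ratios of the transport, lower glycolysis, pyruvate and hypoxia target groups in UMUC3; capitals mark the matches, and a match is a description of the letters, not of binding.
BNIP3 (chr10:131981874-131982173, minus strand): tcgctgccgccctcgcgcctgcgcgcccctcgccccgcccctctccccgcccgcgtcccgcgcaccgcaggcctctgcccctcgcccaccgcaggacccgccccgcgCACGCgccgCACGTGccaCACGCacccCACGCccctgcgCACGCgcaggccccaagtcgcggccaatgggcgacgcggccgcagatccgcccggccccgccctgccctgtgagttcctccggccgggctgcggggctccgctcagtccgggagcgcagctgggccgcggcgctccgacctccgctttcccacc
SLC2A1 (chr1:42958819-42959118, minus strand): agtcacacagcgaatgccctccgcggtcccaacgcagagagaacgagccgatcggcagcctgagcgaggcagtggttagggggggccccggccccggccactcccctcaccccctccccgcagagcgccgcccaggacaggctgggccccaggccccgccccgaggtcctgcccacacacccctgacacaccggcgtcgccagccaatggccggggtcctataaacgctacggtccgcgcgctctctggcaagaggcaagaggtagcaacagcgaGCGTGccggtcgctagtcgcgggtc
PGK1 (chrX:78103998-78104297, plus strand): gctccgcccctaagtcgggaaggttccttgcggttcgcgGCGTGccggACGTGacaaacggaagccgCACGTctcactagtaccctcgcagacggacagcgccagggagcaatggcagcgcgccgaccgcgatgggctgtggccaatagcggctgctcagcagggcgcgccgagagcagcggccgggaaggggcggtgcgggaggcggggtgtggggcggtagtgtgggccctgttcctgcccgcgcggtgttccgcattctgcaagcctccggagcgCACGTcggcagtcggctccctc
LDHA (chr11:18394313-18394612, plus strand): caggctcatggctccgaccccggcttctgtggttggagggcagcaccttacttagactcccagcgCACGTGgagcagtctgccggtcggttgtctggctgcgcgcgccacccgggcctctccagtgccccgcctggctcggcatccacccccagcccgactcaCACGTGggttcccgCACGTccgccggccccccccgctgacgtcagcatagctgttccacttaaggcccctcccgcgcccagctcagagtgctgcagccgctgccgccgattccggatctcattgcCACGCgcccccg
The BNIP3 window held 6 matches, all before the start of the gene, and the LDHA window 6, of which 1 lies after the start. The PGK1 window held 4 and the SLC2A1 window 1, which lies after the start. In SW780 the same 4 genes had log2 ratios of 0.60 (BNIP3), 0.37 (SLC2A1), −0.06 (PGK1) and 0.20 (LDHA).

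The glucose carrier SLC2A1 was lower in shSCD1 in UMUC3 and higher in SW780. SLC2A1 (ENSG00000117394, chromosome 1, 42925375 to 42959176, minus strand, GRCh38, GENCODE 29) encodes GLUT1, the main glucose carrier of many epithelial tumours. It stood at 117 CPM in UMUC3 shNT and 49.6 CPM in UMUC3 shSCD1, and at 159 and 205 CPM in SW780 shNT and shSCD1. The UMUC3 shSCD1 library was therefore the lowest of the 4, 2.37-fold below its shNT library (2.22 to 2.52), while the SW780 shSCD1 library was the highest, 1.29-fold above (1.24 to 1.34). SLC2A3, which encodes the high-affinity carrier GLUT3, was scarce, at 3.11 and 2.80 CPM in UMUC3 and 0.880 and 0.822 CPM in SW780. Its fold intervals held no change in both lines.

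The lactate carriers were higher in the shSCD1 library of SW780. SLC16A1, which encodes MCT1, went from 80.9 to 126 CPM, 1.56-fold higher (1.49 to 1.65). SLC16A3, which encodes MCT4, a carrier suited to lactate export, went from 3.46 to 7.51 CPM on 118 and 192 reads, 2.17-fold higher (1.72 to 2.75). Its log2 ratio of 0.93 missed the size rule because of the added 1 CPM; with 0.5 CPM added it passed, as it did in the authors' deposited table, with a log2 fold change of 1.12. In UMUC3, SLC16A1 stood at 177 and 206 CPM, 1.16-fold higher in shSCD1 (1.12 to 1.21), while SLC16A3 stood at 17.8 and 14.0 CPM, 1.28-fold lower in shSCD1 (1.11 to 1.46). The SLC16A1 libraries thus order the same way in both lines, and the SLC16A3 libraries in opposite ways.

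Of the 11 genes of upper glycolysis, which spend ATP to split glucose into triose phosphates, 9 of the 10 kept in UMUC3 were below 0 (median −0.33) and 5 of 11 in SW780 (median 0.05). The hexokinases, which trap glucose in the cell, were lower in both lines. HK2, the inducible form, went from 194 to 142 CPM in UMUC3, 1.37-fold lower (1.31 to 1.43), and from 100.2 to 72.1 CPM in SW780, 1.39-fold lower (1.31 to 1.47). HK1, the constitutive form, went from 27.7 to 18.6 CPM in UMUC3, 1.49-fold lower (1.33 to 1.67), and from 253 to 226 CPM in SW780, 1.12-fold lower (1.08 to 1.16). Of the 34 members kept in both lines, HK2 had the closest pair of log2 ratios, −0.45 and −0.47.

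Phosphofructokinase, the committed step, is built from 3 subunits. The platelet-type subunit PFKP went from 364 to 283 CPM in UMUC3, 1.29-fold lower (1.25 to 1.33), and from 209 to 238 CPM in SW780, 1.14-fold higher (1.10 to 1.18). The liver-type subunit PFKL went from 55.9 to 45.4 CPM in UMUC3 and from 132 to 163 CPM in SW780, log2 ratios of −0.29 and 0.30. The muscle-type subunit PFKM differed by log2 ratios of −0.01 and −0.21. Per kilobase of exon, PFKP held 82.9% and 80.3% of the 3 subunits in UMUC3 shNT and shSCD1, and 62.4% and 63.8% in SW780, so PFKP led in each of the 4 libraries. PFKFB3 makes fructose 2,6-bisphosphate, the strongest activator of phosphofructokinase, and it was higher in both lines: 54.3 to 62.2 CPM in UMUC3, 1.14-fold (1.07 to 1.23), and 47.4 to 65.6 CPM in SW780, 1.39-fold (1.29 to 1.48). PFKFB4, its relative, stood at 4.95 and 4.82 CPM in UMUC3 and at 9.97 and 10.3 CPM in SW780, within counting error in both.

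Further down, GPI, which turns glucose 6-phosphate into fructose 6-phosphate, had log2 ratios of −0.14 in UMUC3 and 0.31 in SW780. ALDOA, the aldolase that splits fructose 1,6-bisphosphate, went from 613 to 353 CPM in UMUC3, 1.74-fold lower (1.70 to 1.78), and from 988 to 913 CPM in SW780, 1.08-fold lower (1.06 to 1.10). The ALDOA value is uncertain, because other annotated genes share 53.5% of its exonic sequence. ALDOC, a second aldolase, had 8 and 12 reads in UMUC3, and in SW780 went from 11.4 to 7.08 CPM on 389 and 181 reads, 1.61-fold lower (1.35 to 1.93). TPI1, which interconverts the triose phosphates, went from 883 to 654 CPM in UMUC3 and from 640.0 to 670.2 CPM in SW780, log2 ratios of −0.43 and 0.07.

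Lower glycolysis, the steps that return ATP, was lower in the shSCD1 library of UMUC3 and near shNT in SW780. In UMUC3, 5 of 6 genes were below 0 with a median of −0.50; in SW780 the 6 lay between −0.10 and 0.01. PGK1 (chromosome X, 77910739 to 78129296, plus strand), which makes the first ATP of this stage, went from 662 to 340 CPM in UMUC3, 1.95-fold lower (1.90 to 2.00), and from 459 to 439 CPM in SW780, 1.04-fold lower (1.02 to 1.07). At a log2 ratio of −0.96 it missed the size rule, while the authors' deposited table, with its own scaling, gives −1.04. GAPDH, often used as a reference gene, went from 6221 to 4736 CPM in UMUC3, 1.31-fold lower (1.30 to 1.32), and stood at 3092 and 3099 CPM in SW780. ENO1, the main enolase, went from 3035 to 2144 CPM in UMUC3, 1.42-fold lower (1.4 to 1.43), and stood at 1322 and 1332 CPM in SW780, within counting error. PGAM1, the phosphoglycerate mutase, had a log2 ratio of −0.49 in UMUC3 and 0.01 in SW780, and PKM, the pyruvate kinase of most tumours, −0.53 and −0.05. ENO2, the neuronal enolase, was the exception in UMUC3, at 57.9 and 61.3 CPM with an interval that held no change, and it stood at 18.9 and 17.6 CPM in SW780.

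Some of these genes have pseudogenes that could take or lend reads. GENCODE 29 names 62 for GAPDH and 13 for PGAM1, of which the UMUC3 table holds 16 and 8; they carried 0.200% and 0.158% as many reads as GAPDH, and 0.107% and 0.203% as many as PGAM1, in shNT and shSCD1. For TPI1 the figures were 1.11% and 1.35% on 3 pseudogenes. The SW780 table holds none of the pseudogenes of these genes, so the comparison could not be made there. How reads with several matches were counted is not given in the sources used here.

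At the pyruvate branch, LDHA and LDHB differed by unequal amounts. LDHA (chromosome 11, 18394388 to 18408425, plus strand) encodes the subunit that favours lactate formation. It went from 1786 to 1071 CPM in UMUC3, 1.67-fold lower (1.64 to 1.69), and from 463 to 532 CPM in SW780, 1.15-fold higher (1.12 to 1.18). LDHB encodes the subunit that favours pyruvate. It went from 1713 to 1619 CPM in UMUC3, 1.06-fold lower (1.04 to 1.07), and from 914 to 699 CPM in SW780, 1.31-fold lower (1.28 to 1.33). Per kilobase of exon, LDHA was 33.4% of the pair in UMUC3 shNT (33.1 to 33.7) and 24.1% in UMUC3 shSCD1 (23.9 to 24.4), against 19.6% (19.3 to 19.9) and 26.8% (26.3 to 27.2) in SW780 shNT and shSCD1. The share thus stood highest in UMUC3 shNT and lowest in SW780 shNT, and the 2 shSCD1 libraries lay between them. Its size depends on the gene length used: with the longest transcript, LDHA was 39.9% of the pair in UMUC3 shNT. Other annotated genes share 33.4% of the exonic sequence of LDHB. PDK1, the kinase that shuts pyruvate out of the mitochondrial dehydrogenase, went from 95.7 to 60.1 CPM in UMUC3, 1.59-fold lower (1.5 to 1.69), and stood at 18.1 and 17 CPM in SW780, within counting error.

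**Figure D2:**
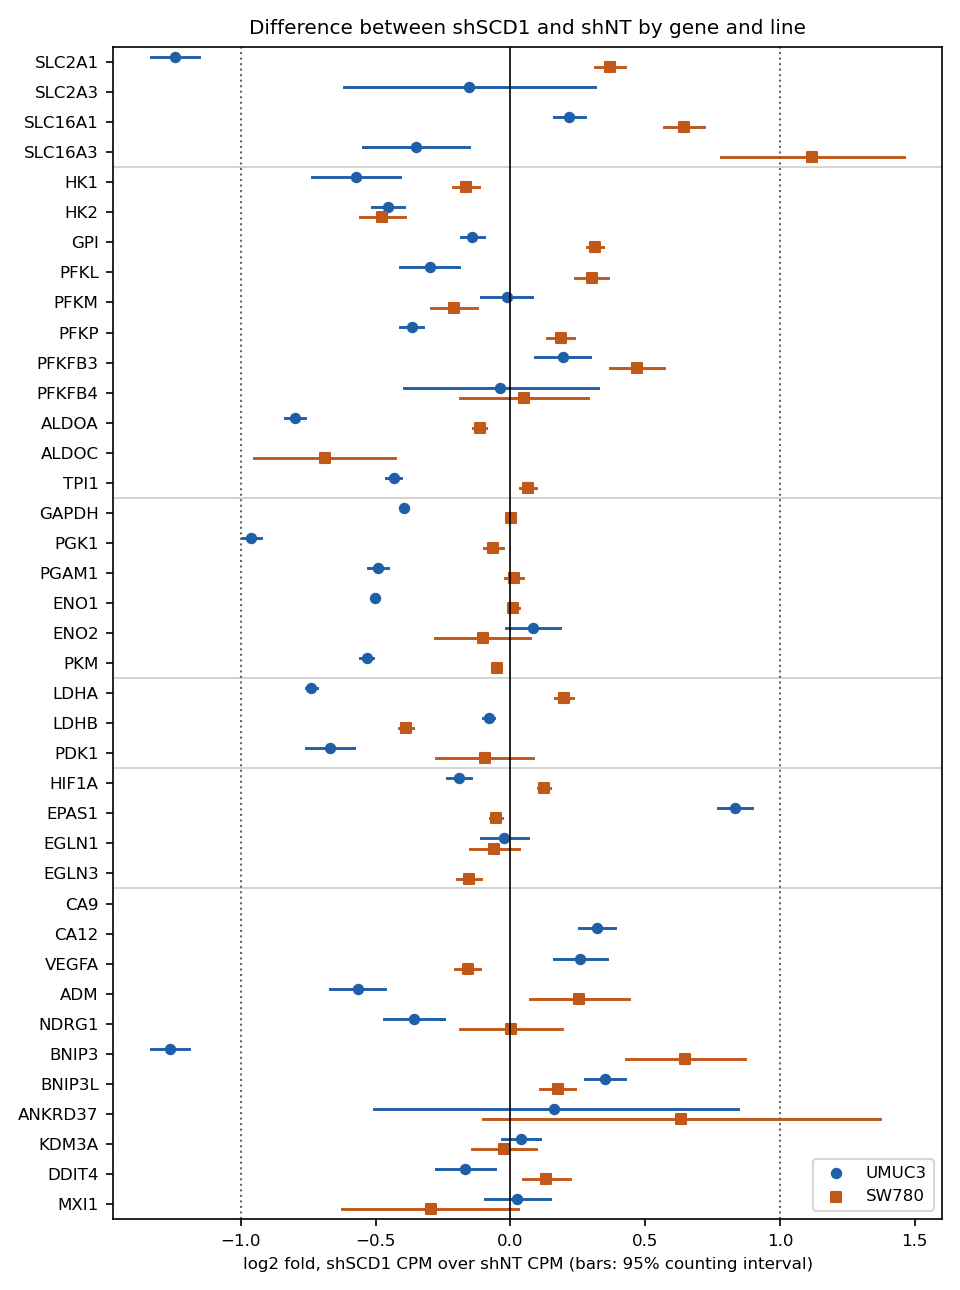
Log2 fold of shSCD1 CPM over shNT CPM with no added CPM (points) and its 95% counting interval (bars) for each gene kept in UMUC3 (circles) and SW780 (squares), with dotted lines at 2-fold. CA9 was kept in neither line. UMUC3 points of the glycolytic enzymes lie mostly left of 0, with SLC2A1 and BNIP3 past 2-fold, and the SW780 points lie around 0 except SLC16A3 at 2.17-fold, ALDOC, BNIP3, SLC16A1 and a few others.

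Of the hypoxia-inducible factors themselves, EPAS1 was higher and HIF1A slightly lower in the shSCD1 library of UMUC3. EPAS1 (ENSG00000116016, chromosome 2, 46293667 to 46386703, plus strand), which encodes HIF-2 alpha, went from 126 to 224.5 CPM in UMUC3, 1.78-fold higher (1.71 to 1.86). In SW780 it stood at 1012 and 975 CPM, 1.04-fold lower (1.02 to 1.05). HIF1A went from 325 to 285 CPM in UMUC3, 1.14-fold lower (1.11 to 1.18), and from 1022 to 1114 CPM in SW780, 1.09-fold higher (1.07 to 1.11). Per kilobase of exon, HIF1A was 78.5% of the pair in UMUC3 shNT (77.8 to 79.2) and 64.3% in UMUC3 shSCD1 (63.5 to 65.0), and 58.9% (58.5 to 59.2) and 61.8% (61.4 to 62.2) in SW780.

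Of the prolyl hydroxylases, EGLN1, the main oxygen sensor, stood at 78.4 and 77.3 CPM in UMUC3 and 68.9 and 66.1 CPM in SW780, within counting error in both. EGLN3, itself induced by hypoxia, separated the lines: it stood at 19 reads and 1 read in the UMUC3 shNT and shSCD1 libraries, and at 305 and 274 CPM in SW780. The UMUC3 reads give a 27.1-fold lower level, with a counting interval from 4.31-fold upward that is wide because it rests on 1 read, and both UMUC3 libraries lay under 1 CPM. In SW780 it was 1.11-fold lower (1.08 to 1.15).

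Among the hypoxia targets, BNIP3 (ENSG00000176171, chromosome 10, 131966455 to 131982013, minus strand), a mitophagy receptor, had a log2 ratio of −1.25 in UMUC3, the lowest of the 36 kept genes with 1 CPM added. It went from 188 to 78.5 CPM there, 2.40-fold lower (2.28 to 2.52), and from 9.36 to 14.7 CPM in SW780 on 319 and 375 reads, 1.57-fold higher (1.35 to 1.83). GENCODE 29 names 39 pseudogenes of BNIP3. The UMUC3 table holds 15, with 1.02% and 2.04% as many reads as the gene in shNT and shSCD1. The SW780 table holds none, so their part in the SW780 value could not be looked at. BNIP3L, the related receptor NIX, was higher in both lines, from 101 to 129 CPM in UMUC3 (1.27-fold, 1.21 to 1.34) and from 117 to 133 CPM in SW780 (1.13-fold, 1.08 to 1.18). Per kilobase of exon, BNIP3 was 60.0% of the pair in UMUC3 shNT (58.8 to 61.2) and 32.9% in UMUC3 shSCD1 (31.8 to 34.0), so the majority passed from BNIP3 to BNIP3L. In SW780 BNIP3 was 6.05% (5.42 to 6.74) and 8.21% (7.43 to 9.06).

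The secreted targets split. ADM, the vasodilator peptide adrenomedullin, went from 70.9 to 47.8 CPM in UMUC3, 1.48-fold lower (1.38 to 1.59), and from 15.1 to 18.0 CPM in SW780, 1.19-fold higher (1.05 to 1.36). VEGFA, the main angiogenic factor, went the other way, from 56.7 to 67.9 CPM in UMUC3, 1.20-fold higher (1.12 to 1.28), and from 276 to 247 CPM in SW780, 1.12-fold lower (1.08 to 1.15). Of the carbonic anhydrases, which buffer acid at the cell surface, CA9 was near 0 in both lines. It had 8 reads in UMUC3 shNT and 0 in UMUC3 shSCD1, and 18 and 9 reads in SW780. Setting the 0 to a floor of 3 reads gave a 3.80-fold lower level in UMUC3, while the counting interval ran from 2.43-fold upward. CA12 went from 129 to 162 CPM in UMUC3, 1.25-fold higher (1.19 to 1.31), and had 5 and 4 reads in SW780.

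The other targets had log2 ratios between −0.35 and 0.34 in both lines. NDRG1, a stress and differentiation gene, went from 54.9 to 42.8 CPM in UMUC3, 1.28-fold lower (1.19 to 1.38), and stood at 15.9 CPM in both SW780 libraries. DDIT4, an inhibitor of mTORC1, had log2 ratios of −0.16 and 0.13. KDM3A, a histone demethylase, and MXI1, an antagonist of MYC, were within counting error in both lines, with log2 ratios of 0.04 and −0.02, and of 0.02 and −0.25; the signs of KDM3A and MXI1 in UMUC3 turned under the authors' scaling, and that of MXI1 also with ratios centred on their median. ANKRD37, a small ankyrin protein, rested on 32 and 51 reads in UMUC3 and on 31 and 36 in SW780, and its intervals held no change.

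**Figure D3:**
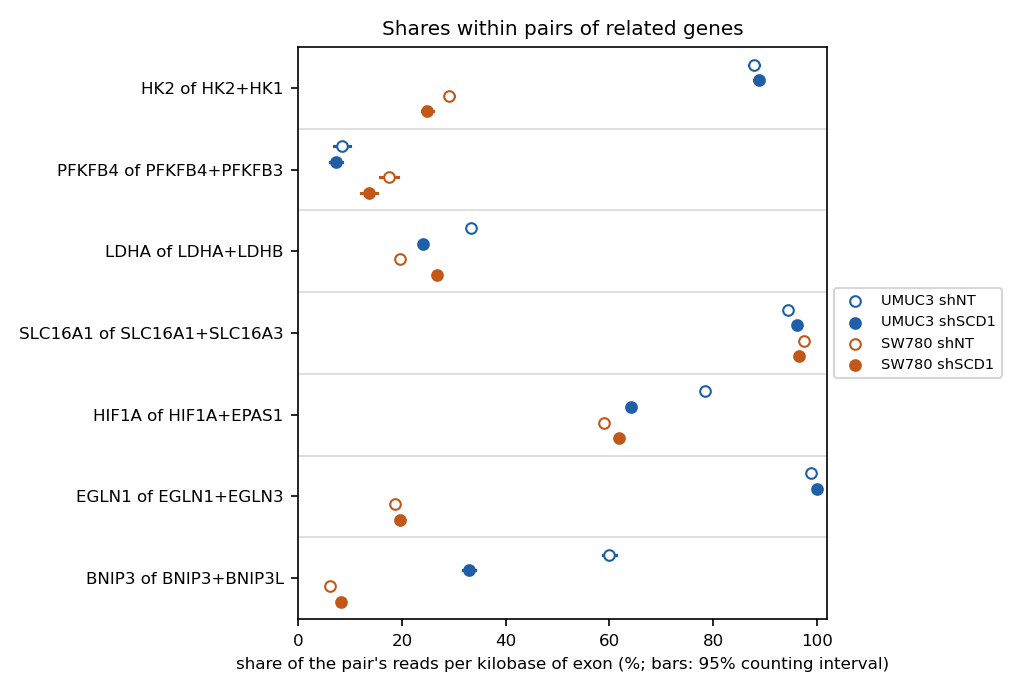
Share of the first gene in the reads per kilobase of exon of a pair of related genes (percent) in the shNT (open) and shSCD1 (filled) libraries of UMUC3 and SW780, with bars for the 95% counting interval, often narrower than the point. LDHA and BNIP3 shares are lower in shSCD1 than in shNT in UMUC3 and higher in SW780, and HIF1A goes from 78.5% to 64.3% in UMUC3.

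Set side by side, many of these genes had ratios of opposite sign in the lines. Of the 34 kept in both lines, 16 were below 0 in UMUC3 and above 0 in SW780, where 22.5% of the 11152 genes kept in both were; 9 were below 0 in both (25.6%), 4 above 0 in both (26%) and 5 above 0 in UMUC3 alone (26%). The 16 were SLC2A1, SLC16A3, GPI, PFKL, PFKP, PFKFB4, TPI1, GAPDH, PGAM1, ENO1, LDHA, HIF1A, ADM, NDRG1, BNIP3 and DDIT4. For 11 of them the interval lay below no change in UMUC3 and above it in SW780 (9.58% of all genes); GAPDH, PGAM1, ENO1, NDRG1 and PFKFB4 lacked this in SW780 or in both. The interval lay below no change in both lines for ALDOA, HK1, HK2, LDHB, PGK1 and PKM (10.4% of all genes), and above it in both for BNIP3L, PFKFB3 and SLC16A1 (10.7%). It lay above no change in UMUC3 and below it in SW780 for EPAS1 and VEGFA (10.6%). None of these shares of intervals was matched for read depth. BNIP3 alone passed 1.5-fold as lower in UMUC3 and higher in SW780 (0.699% of all genes), and none did the reverse (0.386%). None passed 1.5-fold as lower in both (0.556%) or as higher in both (0.708%). With 1 library a group, the difference between the lines was not tested.

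**Figure D4:**
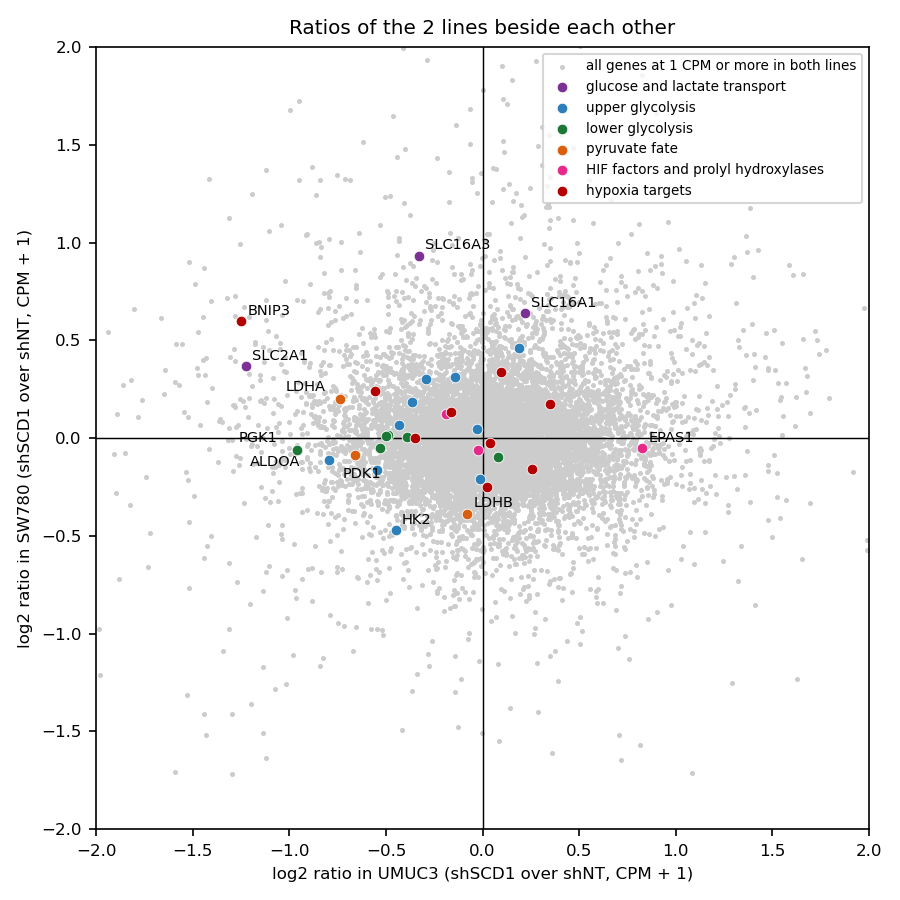
Log2 ratio (shSCD1 over shNT, CPM + 1) in UMUC3 (horizontal axis) against SW780 (vertical axis) for the 34 genes kept in both lines, coloured by role, over all 11152 genes kept in both (grey; both axes end at 2, and some grey points lie beyond). The coloured points spread from BNIP3 at −1.25 to EPAS1 at 0.83 along the UMUC3 axis and, except SLC16A3, SLC16A1 and BNIP3, lie within 0.5 of 0 along the SW780 axis.

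One fit joined both lines, with cell line as a term, and asked only for a difference shared by them. In edgeR's quasi-likelihood test none of the 38 members tested had an adjusted p (Benjamini-Hochberg over 12654 genes) below 0.05, and 0% of all genes did. The smallest adjusted p of any gene in that test was 0.069, so SCD itself, lower in both lines, was not called. The lack of a call is therefore no sign that a member did not differ. HK2 alone had an unadjusted p below 0.05, as did 397 genes in all (3.14%). Its log2 fold change in edgeR was −0.47 with a standard error of 0.14, and its adjusted p was 0.979; it was lower in both lines. DESeq2 called 27 genes of the whole table and none of the 38. The fit had 1 residual degree of freedom among samples.

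The lines also differed before the knockdown. The tables were normalized separately over different genes, so levels are only set beside each other, with no test. Of the 38 genes with at least 1 CPM in either shNT library, 14 were higher in UMUC3 by at least 2-fold on the log2 ratio and 8 in SW780, where 14.8% and 27.5% of all 12817 such genes were. UMUC3 shNT had more BNIP3 (188 beside 9.36 CPM, 20.1-fold, 17.9 to 22.6), PDK1 (5.28-fold, 4.83 to 5.78), SLC16A3 (5.14-fold, 4.18 to 6.36), LDHA (3.86-fold, 3.79 to 3.93) and MXI1 (6.89-fold, 5.92 to 8.04). CA12 stood at 129 CPM beside 5 reads. SW780 shNT had more HK1 (9.13-fold, 8.42 to 9.92), EPAS1 (8.03-fold, 7.73 to 8.34), VEGFA (4.87-fold, 4.59 to 5.16), PKM and HIF1A, and EGLN3 stood at 305 CPM beside 19 reads. Per kilobase of exon, HK2 was 87.9% of the hexokinase pair in UMUC3 shNT (87.0 to 88.8) and 29.1% in SW780 shNT (28.3 to 30.0). After GAPDH, which led in both, ENO1 and LDHB came next in UMUC3 shNT, at 575 and 574 CPM per kilobase and too close to order, and PKM in SW780 shNT, at 416 CPM per kilobase.

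Around these genes, 10 lists of related pathway genes were read in the same way. Of 41 other HIF targets kept in UMUC3, 28 were below 0 (45.7% of all genes) with a median of −0.19; TGFA, a growth factor, went from 3.94 to 1.32 CPM and CITED2, a brake on HIF activity, from 81.2 to 39 CPM, while STC1, a secreted glycoprotein, went from 7.01 to 15.9 CPM. In SW780, 17 of 39 were below 0 (51.5% of all genes) with a median of 0.08, and TMEM45A, a membrane protein, went from 23.3 to 50.6 CPM. LOXL2, a matrix cross-linking oxidase, went from 79.6 to 165 CPM in SW780 and from 311 to 164 CPM in UMUC3, where it missed the size rule at −0.91. CITED2 was lower in SW780 too, at 35.1 and 21.1 CPM.

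Of 14 genes of pyruvate entry into mitochondria kept in UMUC3, 8 were below 0 (45.7% of all genes), and PC, the pyruvate carboxylase, went from 32.3 to 12.6 CPM. In SW780, 12 of 15 were below 0 (51.5% of all genes), and SLC16A7, which encodes the carrier MCT2, went from 45.6 to 20 CPM. Of 18 genes of the hexosamine, glycogen and serine branches in UMUC3, GFPT2, the first enzyme of hexosamine synthesis, went from 25.3 to 62.8 CPM and PPP1R3C, a glycogen-targeting subunit, from 10.1 to 3.60 CPM. None of 16 passed the size rule in SW780, where PPP1R3C was lower too, from 5.16 to 2.70 CPM (1.91-fold, 1.44 to 2.56). Among other glucose transporters, SLC2A12 went from 2.46 to 11.1 CPM in SW780; 38.9% of its exonic sequence is shared with other genes. The pentose phosphate pathway (8 genes in each line), the glucose-sensing list (4 and 4), the MYC network (8 and 8), HIF partners (12 and 14), other glycolytic isoenzymes (5 and 6) and gluconeogenesis (3 and 3) had no gene past the size rule in either line, with medians from −0.17 to 0.31 in UMUC3 and from −0.21 to 0.12 in SW780.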

How the data were processed

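Per the labels' protocols, total RNA was taken with Trizol and made into TruSeq libraries read on a NovaSeq. Per the submitters' processing notes the build was hg38. The sources used here name no aligner, counter, annotation or strand setting. Per the file headers, each line's table holds GFOLD and log2 fold change values and a pair of RPKM columns. The deposited signal in those columns is a read count scaled to one total with no gene length: 100% of values up to 20 reads, and at least 99.9% of all, came out whole, to 0.1 reads, when divided by 1 step per library, so whole reads were recovered and turned into CPM. The design had named CPM from recovered reads. The median gap between the authors' deposited log2 fold change and the plain ratio was −0.08 (UMUC3) and 0.005 (SW780).

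A gene was kept where either library reached 1 CPM. The fit over both lines used edgeR 4.0.16 (TMM, genes at 1 CPM in at least 2 libraries) and, as an alternative, DESeq2 1.42.0, in R 4.3.3. Exon lengths, positions and shared exonic bases came from GENCODE 29. Scripts were tested on simulated data. All 39 members, the pathway list genes past the size rule and SCD are named, except for an item that is not reported here, while marker lists are given by counts, summed levels and markers at 0; the members and lists were chosen with earlier results of these data known. Without molecular identifiers, reads can be copies of one molecule, which the intervals and floors do not cover; the floors of 3 reads were 0.0880 to 0.131 CPM. Alternatives covered the pseudocount, the filter, scaling, the size rule, the authors' values, gene length and overlapping genes.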

Additional observations from a re-analysis of the deposited data

Results flagged for a closer look

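BNIP3 had a log2 ratio of −1.25 in UMUC3 and 0.60 in SW780, so the single pair of libraries of one line went one way and that of the other line the opposite way, each by at least 1.5-fold. In SW780 the step past 1.5-fold was small: the fold was 1.57, with a counting interval of 1.35 to 1.83 that holds 1.5-fold. The authors' deposited log2 fold change there was 0.65, past 1.5-fold. Their GFOLD value, a log2 value that is shrunk, was 0.40, short of 1.5-fold. The difference between the lines was not tested, since each group held 1 library.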

How the results depend on the processing

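No member that passed the size rule changed sign under any alternative run. Of the 72 ratios of kept members, 21 were counted as moved under the authors' deposited log2 fold change and 9 with ratios centred on their median. With TMM scaling all 72 were counted as the same. In UMUC3 the count of members lower past 2-fold was 2 under every other pseudocount, filter and scaling of the ratios computed here, and 3 with the authors' deposited log2 fold change or GFOLD value; at 1.5-fold it was 6 lower and 1 higher. In SW780, 1 member (SLC16A3) was higher with a pseudocount of 0.5 CPM and with the authors' deposited log2 fold change, and at 1.5-fold 3 were higher and 1 lower. The counts at 1.5-fold follow from the smaller size asked for. Over all genes of UMUC3, the 347 higher and 306 lower past 2-fold became 83 and 98 with a pseudocount of 5 CPM, 222 and 204 with a minimum of 5 CPM, 639 and 627 by the authors' deposited log2 fold change, and 190 higher by their GFOLD value. In SW780 the 191 and 136 became 77 and 65 with a pseudocount of 5 CPM and 396 and 236 by the authors' deposited log2 fold change. DESeq2 called 27 genes of the fit over both lines, edgeR 0, and edgeR with no filter 1. With the longest transcript as the length, 31 of the 40 pair shares moved beyond their counting interval, while their order between shNT and shSCD1 does not depend on length by construction. No paired analysis within a line was possible, because each group held 1 library and the labels give no replicate numbers that pair libraries. Across the lines, the fit over both lines is the paired analysis: its term for cell line pairs shNT with shSCD1. Without that term edgeR called 0 members and gave 9 genes an unadjusted p below 0.05, beside 397 with it. Leaving out a library would leave that fit no residual degrees of freedom. Genes under a few CPM (CA9, EGLN3 and ALDOC in UMUC3; CA9, CA12 and SLC2A3 in SW780) are limited by depth.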
